A study of Mus musculus with 12 samples.

Results

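The genotype effect of Setdb1 mutation was compared between long-term haematopoietic stem cells (LT-HSC) and multipotent progenitors (MPP) of mouse fetal liver, as the log2 mutant-to-control fold change in LT-HSC minus that in MPP. The rule took all 12 RNA-seq libraries of the series, grouped by their titles, and every gene with enough counts, which was 13249 of the 24054 genes in the tables. A positive difference means that the effect was more positive in LT-HSC than in MPP, and a negative difference that it was more negative there. Cells came from E13.5 fetal liver and carried the LSK markers of early blood cells; LT-HSC were sorted as CD150 positive and CD48 negative and MPP as CD150 negative and CD48 positive. The 3 LT-HSC mutants and the 3 MPP mutants were Setdb1 p/p;vav-cre (the transgene drives Cre recombinase in blood cells); what p stands for is not given in the labels. All 6 controls carried 1 p allele (Setdb1 +/p). LT-HSC controls 2 and 3 and MPP control 3 carried vav-cre, while LT-HSC control 1 and MPP controls 1 and 2 did not. The labels give 500 to 1000 sorted cells for LT-HSC and 20000 for MPP, and 10 ng of RNA per library. Whether libraries came from separate fetuses is not stated, so the p-values weigh effects against a spread that may partly be technical.

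Setdb1 makes an enzyme that methylates histone H3 at lysine 9, which marks chromatin as silent, and it is known for keeping germline genes and retroelements off. LT-HSC sit at the top of the blood hierarchy and renew themselves, whereas MPP divide towards the myeloid, lymphoid and red cell lineages. A gene silenced by the enzyme in both cell types can rise in both when it is lost, while genes of a lineage depend on the state of the cell that carries them.

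Library totals ran from 10119416 to 14113198 expected counts, with 14863 to 15780 genes above 0. The sorted populations differed as their names say: in controls, genes known from haematopoietic stem cells had a median log2 fold change of 1.62 of LT-HSC over MPP (33 genes tested) and lymphoid genes of -1.66 (21 genes), against 0.01 over all genes. The LT-HSC mutants varied more among themselves than the other groups, with a median SD of log2 CPM (counts scaled to library size) of 0.27 per gene against 0.16, 0.16 and 0.13 in control LT-HSC, control MPP and mutant MPP. LT-HSC mutant 3 stood apart in red cell genes (summed to 12100 CPM against 7557 and 6619 CPM in mutants 1 and 2), and mutant 2 in macrophage genes (2154 CPM against 633.5 and 724.7 CPM). Y-linked transcripts marked 3 libraries as male: control 2 of LT-HSC, and control 3 and mutant 2 of MPP. Setdb1 itself (chr3:95323525-95357202, GRCm38) had 83.9, 73.5 and 108 CPM in LT-HSC controls 1 to 3, 66.5, 66.5 and 80.8 CPM in the mutants, 140, 95.3 and 87.9 CPM in control MPP and 87.0, 117 and 99.1 CPM in the mutants. Its genotype effect did not differ detectably between the cell types (difference -0.22, 95% interval -0.81 to 0.37, edgeR's adjusted p = 0.837). Counts over the whole gene include transcripts that lack exons, so they do not check the genotype labels.

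The genotype effect differed between LT-HSC and MPP in 50 genes (edgeR's quasi-likelihood test, adjusted p under 0.05), or 0.377% of those tested. Of these, 30 (0.226%) had a positive and 20 (0.151%) a negative difference, and 44 differed at least 2-fold. With upper-quartile scaling, 41 genes were called, all among these 50, of which 73.2% were positive, against 60% here. Most were genes that moved in MPP and whose change in LT-HSC did not pass. The effect was the larger one in MPP for 46 of the 50 and in LT-HSC for 4. Among genes with a positive difference, 24 were lower in mutant MPP and not called in LT-HSC, and among those with a negative difference, 16 were higher in mutant MPP and not called in LT-HSC. Their median effects were -0.06 in LT-HSC and -1.78 in MPP for the positive differences, and -0.08 and 1.59 for the negative ones. For comparison, 1.0% of all genes tested were called higher and 0.883% lower in mutant LT-HSC, and 10.9% higher and 10.2% lower in mutant MPP (with upper-quartile scaling, the share of higher genes among those called in MPP was 37.3%, against 51.5% here). Since both effects make up the difference, these counts describe the called genes and are no further test of them. The number called rested on single libraries: it was 885 without LT-HSC mutant 3 (39.3% of them positive) and 1 without MPP mutant 2, and 4 to 17 without any one of the 3 LT-HSC controls, LT-HSC mutant 1, the 3 MPP controls or MPP mutant 3. With only the controls that carried vav-cre, which leaves 1 MPP control assumed to vary like the other groups, edgeR called 0 genes (829 at an unadjusted p under 0.05), and with all libraries DESeq2 called 339. With the number in the file names, which differs from that in the titles, as a random effect in limma, 137 genes were called (40.9% positive). The sign of the difference did not change for any of the 50 in the 24 alternatives run, but none of the 50 was called in every one. The alternatives refit all or most of the libraries that chose the 50, so a kept sign is no further test of them. An unadjusted p under 0.05 was reached by 1637 genes, or 12.4% of those tested, and the median SE of a difference was 0.25, against 0.18 for either effect alone. The fit shares its estimate of a gene's spread among all groups. These SEs therefore carry the wider spread of the LT-HSC mutants only in part into the LT-HSC effect, and carry part of it into the MPP effect.

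**Figure D1:**
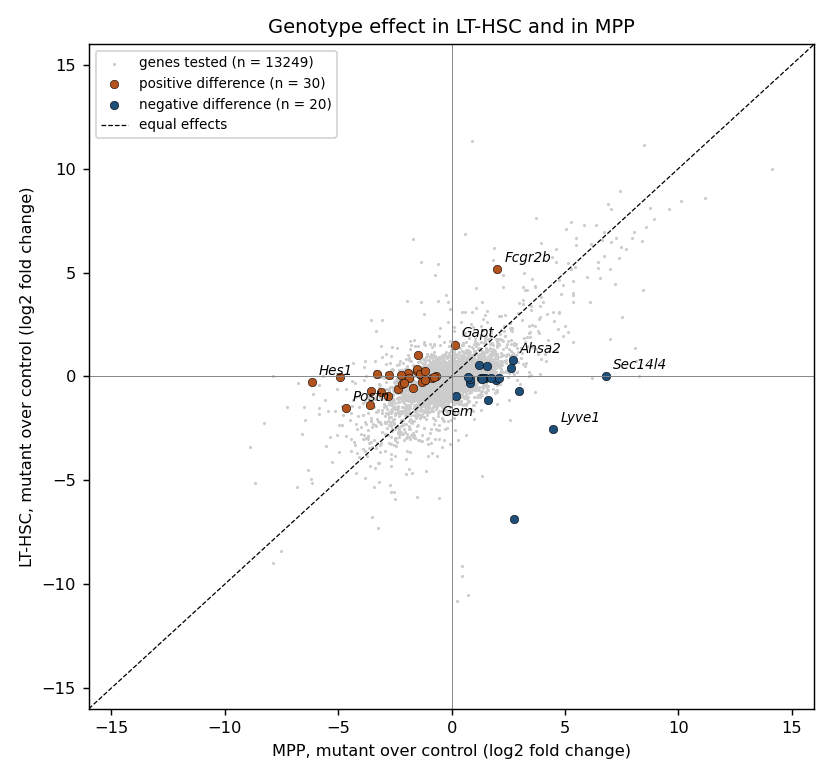
Genotype effect of each of the 13249 genes tested, as log2 mutant-to-control fold change, in MPP (horizontal axis) and LT-HSC (vertical axis); coloured points are the 50 genes whose effects differed by edgeR's test, and the dashed line marks equal effects. Most of the 30 positive differences lie left of the centre near a LT-HSC effect of 0, and most of the 20 negative ones right of it.

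Lyz2 and Irf8, known from myeloid cells, were among the positive differences with the smallest p, while the granulocyte and monocyte list that holds both did not go one way (12 of 29 genes tested positive and 17 negative, median difference -0.36, medians of -0.52 in LT-HSC and -0.14 in MPP). Lyz2, the lysozyme of macrophages and granulocytes, measured 403, 482 and 380 CPM across controls 1 to 3 of LT-HSC and 517, 446 and 444 CPM in LT-HSC mutants 1 to 3. In MPP its values were 991, 1250 and 740 CPM for controls against 254, 247 and 288 CPM in the mutants. The LT-HSC groups overlapped, while every MPP mutant lay below every MPP control. The effect was 0.15 in LT-HSC (adjusted p = 0.717) and -1.92 in MPP (adjusted p = 3.41e-05), a difference of 2.07 (SE 0.23, 95% interval 1.57 to 2.57, adjusted p = 0.00741). Irf8, a transcription factor of monocytes and dendritic cells, stood at 59.9, 50.1 and 46.7 CPM in control LT-HSC and at 69.0, 62.1 and 53.5 CPM in mutant LT-HSC. In MPP it fell from 94.1, 129 and 106 CPM to 41.1, 31.2 and 40.3 CPM, again without overlap, and the difference was 1.78 (SE 0.22, adjusted p = 0.0114). Lyz2 and Irf8 were each called in 22 of the 24 alternatives. Irf5, a related factor that acts below Toll-like receptors, fell in MPP from 97.5 ± 12 to 26.8 ± 4.13 CPM (SD, n = 3 each), with 38.3 ± 1.57 and 36.5 ± 12.6 CPM in control and mutant LT-HSC (difference 1.79, adjusted p = 0.0288).

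Several other regulators and structural genes showed the same form. Coro2a, an actin-binding coronin, fell in MPP from 158, 178 and 171 CPM to 70.0, 55.3 and 70.7 CPM, and stood at 36.4, 43.3 and 48.6 CPM in control LT-HSC and 51.2, 46.3 and 40.4 CPM in mutant LT-HSC. The MPP groups were separate and the LT-HSC groups overlapped (difference 1.48, SE 0.19, adjusted p = 0.0114). Id2, an inhibitor of helix-loop-helix transcription factors, fell in MPP from 120 ± 13.9 to 23.4 ± 1.26 CPM, beside 32.5 ± 8.66 and 21.1 ± 4.01 CPM in control and mutant LT-HSC (SD, n = 3 each; difference 1.74). Lpar1, a receptor of lysophosphatidic acid, had a difference of 2.87, with 16.4 ± 2.43 CPM in control MPP and 1.37 ± 0.101 CPM in mutant MPP (SD, n = 3 each). Its LT-HSC effect of -0.70 did not pass (adjusted p = 0.189). The further genes that the naming rule took were Ppfia4, of the liprin family (difference 2.31), Slfn2, a schlafen family member of immune cells (2.81), Padi2, an arginine deiminase (1.85), and Tmem229b (1.51), all of which fell in MPP and were not called in LT-HSC. Slfn2 was the least even of these in mutant LT-HSC, at 80.8, 63.6 and 32.0 CPM.

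**Figure D2:**
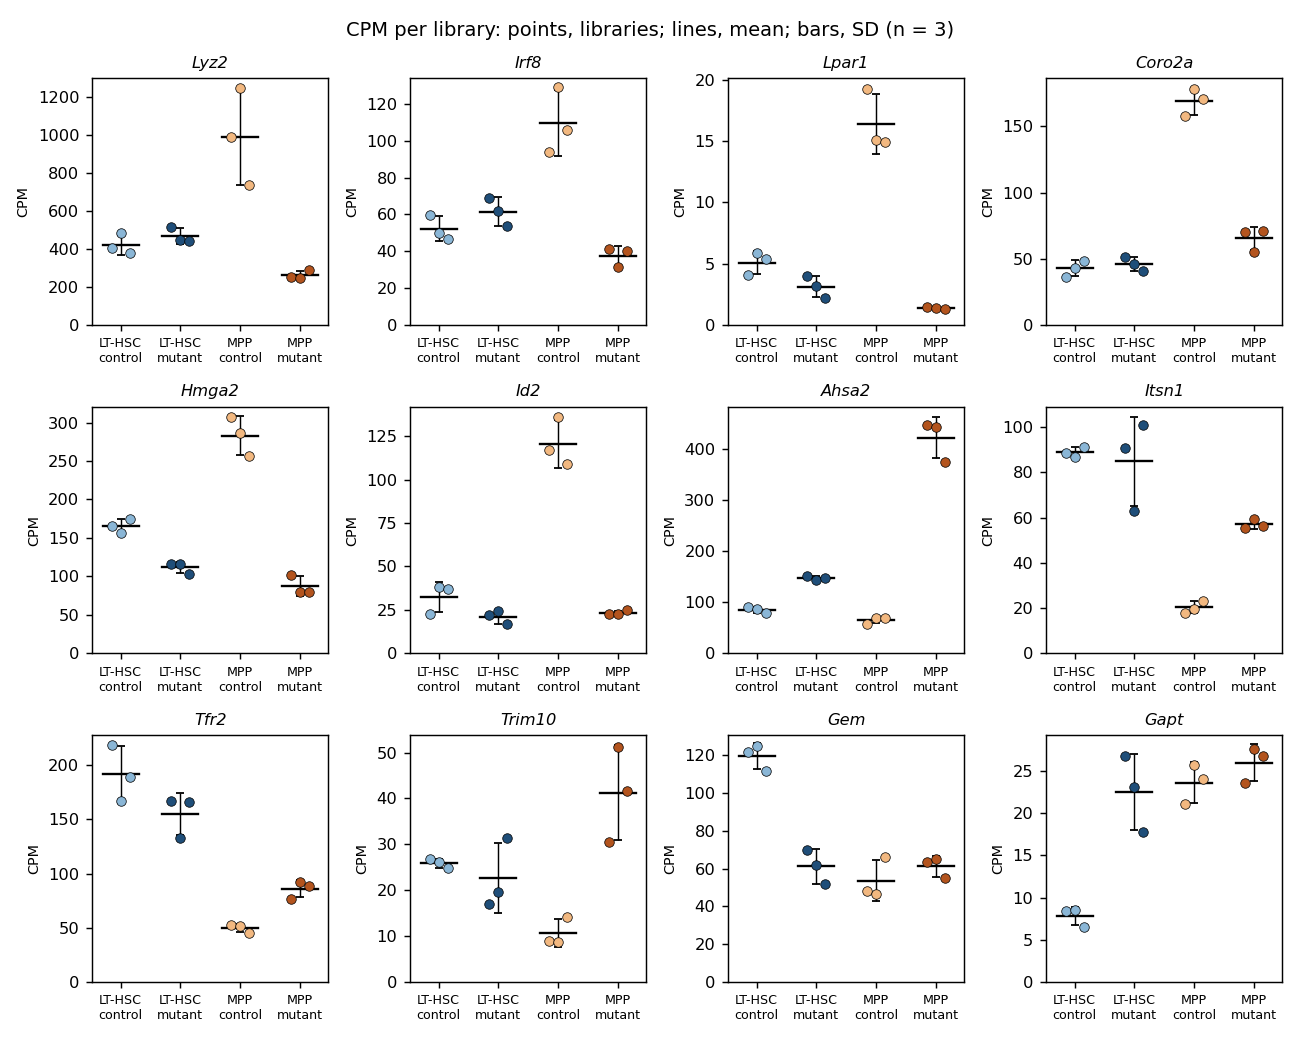
CPM values of 12 genes whose effects differed, per library, with the mean and SD (n = 3) of each group. The first 6 panels show positive differences with mutant MPP below control MPP, and the next 4 negative differences with mutant MPP above; Gem and Gapt moved in LT-HSC.

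In 4 genes with a positive difference the mutants were lower in both cell types, and by more in MPP. Hmga2, a chromatin protein of fetal stem cells, stood at 165, 156 and 175 CPM in control LT-HSC and at 116, 116 and 103 CPM in mutant LT-HSC. In MPP its values were 307, 286 and 256 CPM for controls against 102, 79.9 and 79.2 CPM in mutants. Neither pair of groups overlapped, and the falls were 0.57 in LT-HSC (adjusted p = 0.0227) and 1.70 in MPP (adjusted p = 4.08e-06) on the log2 scale, a difference of 1.13 (SE 0.16, adjusted p = 0.0151). Postn, a secreted matrix protein, went from 31.4 ± 6.71 to 11.0 ± 3.85 CPM in LT-HSC and from 31.3 ± 7.51 to 1.23 ± 0.689 CPM in MPP (SD, n = 3 each; difference 3.15, adjusted p = 0.0288). Ctsh, a lysosomal cathepsin, went from 51.2 ± 7.26 to 19.8 ± 8.13 CPM in LT-HSC and from 68.1 ± 11.1 to 5.63 ± 1.36 CPM in MPP (SD, n = 3 each; difference 2.22). The other gene of this form, Kmo, an enzyme of tryptophan breakdown, had 14.2 ± 1.2 CPM in control MPP and 2.05 ± 0.374 CPM in mutant MPP (SD, n = 3 each; difference 1.83), and was named after its values were seen.

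A pair of genes had the positive difference from LT-HSC. Fcgr2b, an inhibitory receptor for antibodies, rose in LT-HSC from 0.726, 2.80 and 0.528 CPM to 52.0, 56.9 and 34.7 CPM and in MPP from 9.64, 8.97 and 8.10 CPM to 44.0, 31.8 and 31.2 CPM. The mutants of both cell types reached similar levels from unlike starting levels, and the difference was 3.15 (SE 0.57, 95% interval 1.91 to 4.38, adjusted p = 0.0441). Gapt, an adaptor protein of B cells that was named after its values were seen, rose in LT-HSC from 8.38, 8.47 and 6.56 CPM to 26.8, 23.1 and 17.8 CPM. In MPP its values were 21.1, 25.8 and 24.1 CPM for controls and 23.6, 27.7 and 26.8 CPM in mutants, so that mutant LT-HSC came to overlap both MPP groups (difference 1.40, adjusted p = 0.0417).

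Ahsa2, a relative of an activator of the chaperone HSP90, had the smallest p of all genes tested. It rose in LT-HSC from 90.6, 85.9 and 78.5 CPM to 151, 144 and 147 CPM and in MPP from 57.9, 68.8 and 69.7 CPM to 448, 444 and 376 CPM. The groups were separate in both cell types, and the rise was 0.79 in LT-HSC and 2.69 in MPP, a difference of -1.90 (SE 0.14, 95% interval -2.20 to -1.59, adjusted p = 0.000165). Ahsa2 was called in 23 of the 24 alternatives, more often than any other of the 50. The gene lies at chr11:23487882-23498045 (GRCm38). Smc5, a subunit of the complex of SMC proteins that serves DNA repair, also rose in both, from 204 ± 4.87 to 300 ± 17.6 CPM in LT-HSC and from 139 ± 2.05 to 317 ± 17.3 CPM in MPP (SD, n = 3 each). Its difference of -0.63 was the smallest in size among the 50, and the gene was named after its values were seen.

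The other genes with a negative difference included genes of red cells and of iron. Tfr2, a transferrin receptor that senses iron, stood at 219, 167 and 189 CPM in control LT-HSC and at 167, 133 and 166 CPM in mutant LT-HSC, which met at 167 CPM. In MPP it rose from 52.2, 51.5 and 45.1 CPM to 76.9, 92.0 and 88.9 CPM (difference -1.10, SE 0.18, adjusted p = 0.0288). Trim10, known from red cell maturation, stood at 26.7, 26.2 and 24.8 CPM in control LT-HSC and at 16.9, 19.6 and 31.4 CPM in mutant LT-HSC, of which only mutant 3 exceeded the controls. In MPP it rose from 8.95, 8.64 and 14.2 CPM to 30.6, 51.3 and 41.7 CPM (difference -2.15, SE 0.37, adjusted p = 0.0417). Slc22a4, a carrier of organic cations, rose in MPP from 6.82 ± 0.044 to 18.0 ± 4.24 CPM and stood at 15.6 ± 1.24 and 14.8 ± 2.0 CPM in control and mutant LT-HSC (SD, n = 3 each; difference -1.47).

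Other genes with a negative difference had unlike roles. Itsn1, a scaffold of endocytosis, rose in MPP from 18.0, 19.7 and 23.2 CPM to 55.6, 59.5 and 56.3 CPM, and stood at 88.7, 86.7 and 91.3 CPM in control LT-HSC and 90.8, 62.9 and 101 CPM in mutant LT-HSC (difference -1.56, adjusted p = 0.0151). The cargo adaptor Bicd1 (difference -1.80), the bacterial cell wall receptor Pglyrp1 (-1.48) and Nxt2, of the mRNA export machinery (-1.08), rose in MPP and were not called in LT-HSC. Gem, a small GTPase, was the gene of this direction that moved in LT-HSC alone by the test. It fell there from 122, 125 and 112 CPM to 70.0, 61.7 and 51.8 CPM and had 48.1, 46.4 and 66.3 CPM in control MPP and 63.7, 65.3 and 54.8 CPM in mutant MPP (difference -1.16, adjusted p = 0.0441).

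A few called genes rested on very low counts. Lyve1, a hyaluronan receptor of vessel lining cells, had 15 counts over the 3 MPP controls and 312 over the 3 MPP mutants (11.4, 3.72 and 12.5 CPM), and 42 and 6 counts over control and mutant LT-HSC. Its fitted difference was -7.02 (adjusted p = 0.0417), with a 95% interval from -9.72 to -4.31. Lyve1 belongs to the endothelial list, in which 12 of the 14 genes tested had a positive difference (6426 of all 13249 genes did). Without LT-HSC mutant 2, 8 of the 14 were positive. In mutant MPP 2 of the 14 were called higher and 4 lower (10.9% and 10.2% of all genes tested). In 3 further called genes a whole group held 3 counts or fewer, so that their fitted differences depend on the prior count and are not quoted: D10Bwg1379e, with 0 counts over the mutant LT-HSC and 50 over the control LT-HSC, Sec14l4, with 2 over the control MPP and 238 over the mutant MPP, and Hes1, a target of Notch signals, with 106 over the control MPP and 1 over the mutant MPP. These 3 were named after their values were seen.

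Promoters are shown for 4 genes that carry a short motif linked to the groups described here: Trim10 and Epor with the GATA motif AGATAAG of red cell factors, Kmo with the motif GAGGAAGT of the myeloid factor PU.1, and Gbp3, an interferon-induced GTPase, with the interferon response motif GAAANNGAA. Sequences run from 250 bases before to 50 after the start site in RefSeq's table for GRCm38.p6, on the gene's strand, and capitals mark each match, which on the opposite strand appears as its reverse complement.
Trim10: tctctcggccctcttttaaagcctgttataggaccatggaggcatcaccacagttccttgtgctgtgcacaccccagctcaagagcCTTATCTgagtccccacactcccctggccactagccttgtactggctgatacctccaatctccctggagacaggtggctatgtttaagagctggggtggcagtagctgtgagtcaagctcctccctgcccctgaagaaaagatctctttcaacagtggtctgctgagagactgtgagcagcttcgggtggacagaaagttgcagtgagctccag
Epor: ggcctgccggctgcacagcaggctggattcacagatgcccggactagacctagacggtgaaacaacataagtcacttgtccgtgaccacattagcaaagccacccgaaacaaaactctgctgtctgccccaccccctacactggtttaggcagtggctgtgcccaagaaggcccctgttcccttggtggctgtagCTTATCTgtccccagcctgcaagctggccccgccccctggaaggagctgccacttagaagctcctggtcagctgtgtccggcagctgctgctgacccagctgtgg
Kmo: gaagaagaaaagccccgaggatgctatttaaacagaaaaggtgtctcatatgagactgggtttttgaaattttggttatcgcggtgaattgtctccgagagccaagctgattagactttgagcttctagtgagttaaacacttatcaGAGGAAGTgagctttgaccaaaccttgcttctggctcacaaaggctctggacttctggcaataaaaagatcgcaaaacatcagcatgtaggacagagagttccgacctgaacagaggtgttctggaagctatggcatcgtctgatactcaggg
Gbp3: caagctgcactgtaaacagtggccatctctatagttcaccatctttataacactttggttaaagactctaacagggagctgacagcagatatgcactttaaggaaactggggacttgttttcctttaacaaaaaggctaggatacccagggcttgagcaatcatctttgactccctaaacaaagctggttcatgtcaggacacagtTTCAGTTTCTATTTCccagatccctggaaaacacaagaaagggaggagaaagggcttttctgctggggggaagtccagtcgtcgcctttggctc
The windows lie at chr17:36869324-36869623 (plus strand, Trim10), chr9:21963527-21963826 (minus strand, Epor), chr1:175631943-175632242 (plus strand, Kmo) and chr3:142559794-142560093 (plus strand, Gbp3). Matches start at -164 in Trim10, -55 in Epor and -103 in Kmo, and at -44 and -38 in Gbp3, where the 2 matches overlap. On either strand, AGATAAG was present in 3 of the 15 genes with a negative difference that had a promoter in the table (20%), against 1.92% of the 10574 genes tested with a promoter and 3.06% of all 27025 promoters. The KLF1 motif CCACACCCT was present in 2 of the 15 (13.3%, against 0.738% and 0.821%). GAGGAAGT was present in 3 of 26 genes with a positive difference (11.5%, against 3.25% and 3.25%), and GAAANNGAA in 2 of 26 (7.69%, against 7.29% and 8.58%). GAAANNGAA can overlap itself. These shares describe letters in a window and have no test.

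The same difference can be read as a change in how far LT-HSC and MPP lie apart. In controls 31.3% of genes tested differed between the cell types by edgeR's test, and in mutants 35.7% did (of those in mutants, 50.3% were higher in LT-HSC, and 68% with upper-quartile scaling). For 37 of the 50 genes the gap between LT-HSC and MPP was smaller in the mutants, in 22 of the 30 positive and 15 of the 20 negative ones. In 15 genes LT-HSC lay below MPP in controls and did not differ detectably in mutants, and in 7 LT-HSC lay above MPP in controls and did not differ detectably in mutants. In 16 genes the order of the cell types turned by both tests: 8 went from lower to higher in LT-HSC, Lyz2 and Irf8 among them, and 8 from higher to lower. Since both gaps make up the difference, these counts describe the called genes and are no further test of them. The same counts were not made over all genes tested. In controls Lyz2 was lower in LT-HSC by a log2 fold change of -1.24 (adjusted p = 0.000237), and in mutants it was higher by 0.83 (adjusted p = 0.00249). Trim10 turned the other way, from 1.29 (adjusted p = 0.00398) to -0.86 (adjusted p = 0.0234). In Slfn2 and Postn the cell types did not differ detectably in controls (-0.44 and 0.01), and LT-HSC lay higher in mutants by 2.37 and 3.16.

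**Figure D3:**
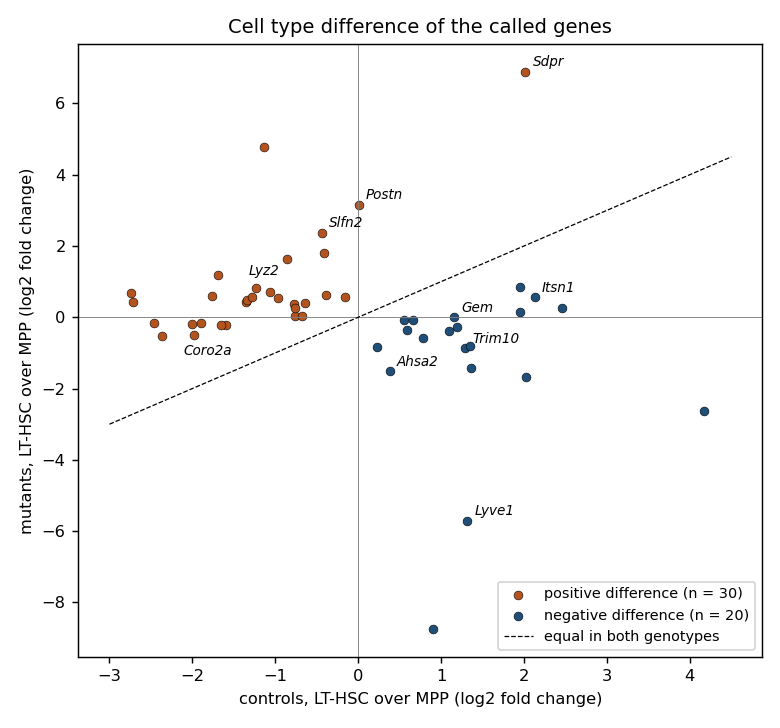
Log2 fold change of LT-HSC over MPP in controls (horizontal axis) and in mutants (vertical axis) for the 50 genes whose genotype effect differed; the dashed line marks an equal gap in both genotypes. Points near the horizontal line at 0, such as Gem, are genes whose gap was near 0 in mutants.

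Most of the genotype effect was shared in direction. Of the 1439 genes called higher in mutant MPP, 1221 (84.9%) had a positive effect in LT-HSC, with a median of 0.64 in MPP and 0.21 in LT-HSC, and 117 were called higher there too. Of the 1353 called lower in MPP, 1196 (88.4%) had a negative effect in LT-HSC, with medians of -0.96 and -0.32, and 86 were called lower in both. The MPP medians follow from choosing the genes there. Starting from LT-HSC, 131 of the 133 higher genes and 112 of the 117 lower genes had the same sign in MPP, with medians of 1.84 in LT-HSC and 2.02 in MPP for the higher and -1.75 and -1.56 for the lower genes. Across all genes tested the effects had a Pearson r of 0.66, as a description, since genes are not independent.

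The 16 genes taken by rule for the smallest p in LT-HSC had an effect of the same sign in MPP, and none was called for the difference. At an unadjusted p under 0.05 of edgeR's test, their differences of 0.93 in Iqcg, -0.37 in Dnah8, -2.20 in Muc6 and 2.46 in Tmem26 passed, as their 95% intervals exclude 0. Stag3, which belongs to the meiotic cohesin ring, rose from 13.8, 17.2 and 13.3 CPM to 165, 130 and 169 CPM in LT-HSC and from a mean of 18.0 CPM to 186, 218 and 205 CPM in MPP. Its levels before and after were close in both cell types, with effects of 3.39 and 3.50 and a 95% interval of the difference from -0.61 to 0.39. Dnah8, a dynein of sperm flagella, rose by 2.71 and 3.09 (interval -0.70 to -0.05), and M1ap, known from meiosis, by 3.58 and 4.03 (interval -1.05 to 0.14). The carbonic anhydrase Car1, made by red cells, had means of 7.90 CPM in control LT-HSC and 9.82 CPM in control MPP and rose in both, to 437, 580 and 1370 CPM in mutant LT-HSC and 1100, 1800 and 1650 CPM in mutant MPP (interval of the difference -1.79 to 0.57). Among the lower genes, the growth factor receptor Flt3, found on multipotent and lymphoid progenitors, fell by 1.1 in LT-HSC and by 0.92 in MPP (interval of the difference -0.63 to 0.27), and Jun, an immediate early factor, by 1.05 and 1.43 (interval -0.09 to 0.84). Among these lower genes Muc6, a mucin, and Tmem26 had the widest gap, with effects of -3.26 and -1.06 in Muc6 and -2.35 and -4.81 in Tmem26 (adjusted p = 0.0758 for both differences). Intervals that span 0 do not show that the effects were equal.

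Red cell genes were higher in mutant MPP, with a median effect near 0 in LT-HSC that depended on LT-HSC mutant 3. Of the 46 erythroid genes tested, 31 rose and none fell in MPP (10.9% of all genes tested rose), and Car1 was the only one called in LT-HSC. Their median effect was 1.46 in MPP and -0.03 in LT-HSC, and their median difference -1.37, against -0.01 over all genes. The difference was negative in 45 of the 46 (6823 of all 13249 genes), and called in Tfr2 and Trim10 (0.151% of all genes). Epor, the receptor of erythropoietin, stood at 101, 85.2 and 97.9 CPM in control LT-HSC and 77.3, 88.9 and 154 CPM in mutant LT-HSC, which overlapped. In MPP it rose from 40.9, 51.5 and 40.9 CPM to 106, 161 and 164 CPM without overlap, with a difference of -1.52 that did not pass (adjusted p = 0.0794). The red cell transcription factor Klf1 had a difference of -1.52 (adjusted p = 0.202). LT-HSC mutant 3 lay apart here, with Klf1 at 328 CPM against 102 and 135 CPM in mutants 1 and 2 and 156, 159 and 194 CPM in the controls. Summed over the list, control LT-HSC held 7269, 10100 and 8590 CPM, LT-HSC mutants 7557, 6619 and 12100 CPM, MPP controls 4927, 4229 and 6014 CPM and MPP mutants 10260, 15210 and 14100 CPM. Without LT-HSC mutant 3, 32 of the 46 were called (885 of all 13513 genes tested), the median difference was -1.84 and the LT-HSC median -0.39. With all libraries, 18 were called by DESeq2 (339 of all 13249 genes). With the file-name number as a random effect 14 were called (137 of all 13249 genes). None was called in 10 of the 24 alternatives: with sex or the macrophage sum as a covariate, with vav-cre controls only, and without LT-HSC control 1 or 3, LT-HSC mutant 1, MPP control 1 or 2, or MPP mutant 2 or 3. Across all alternatives the median difference lay between -1.84 and -1.13. In bulk samples more cells of a kind and more RNA per cell cannot be told apart.

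**Figure D4:**
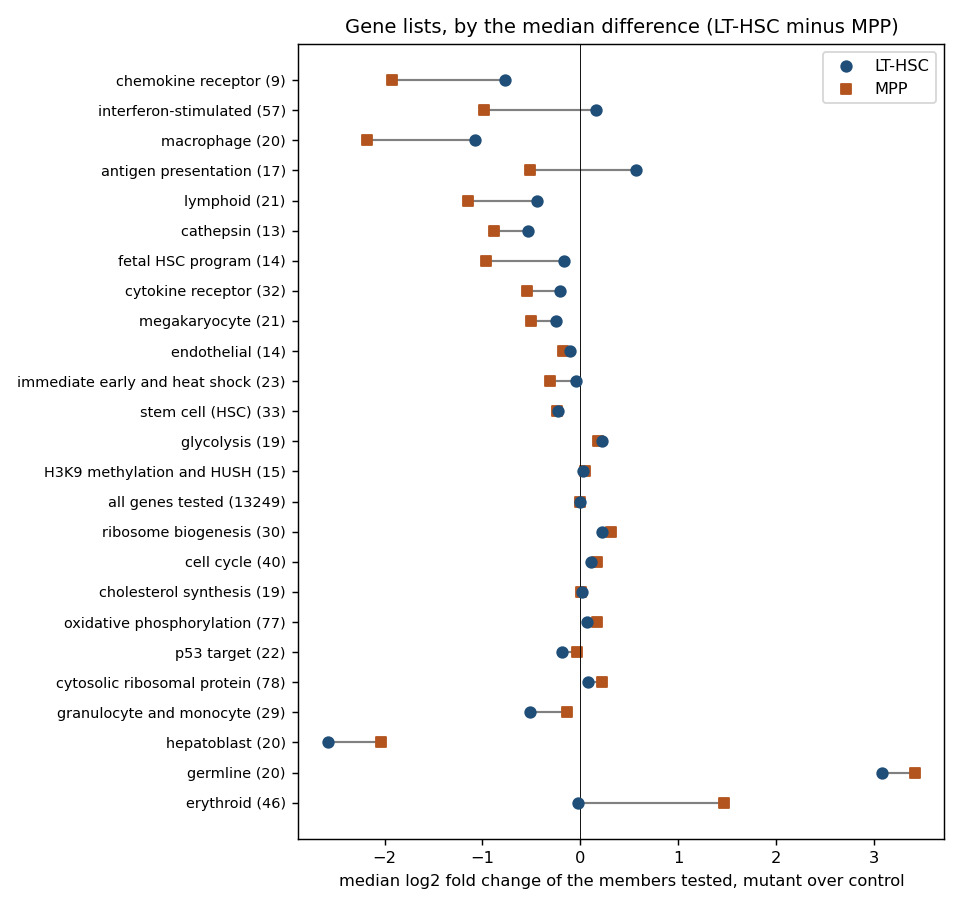
Median log2 mutant-to-control fold change in LT-HSC (circles) and MPP (squares) for each gene list with at least 9 genes tested (number in brackets), ordered by the median difference. The erythroid list has its LT-HSC median near 0 and its MPP median at 1.46, and the interferon-stimulated list its MPP median at -0.99.

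Interferon-stimulated genes had the opposite form. Of 57 tested, 22 fell and none rose in mutant MPP (10.2% of all genes tested fell), and none was called in LT-HSC. Their median effect was -0.99 in MPP and 0.16 in LT-HSC, and the median difference 1.08. The difference was positive in 55 of 57 (6426 of all 13249 genes). No member was called for the difference by edgeR's test. In 35 the unadjusted p was under 0.05 (12.4% of all genes), and DESeq2 called 10 (339 of all 13249 genes). Epsti1, an interferon-induced gene, stood at 52.7, 46.6 and 40.5 CPM in control LT-HSC, at 58.4, 71.1 and 40.9 CPM in mutant LT-HSC, at 58.9, 58.3 and 49.4 CPM in control MPP and at 34.5, 30.3 and 28.7 CPM in mutant MPP. The MPP groups were separate, and the difference of 1.12 had an adjusted p of 0.0832 by edgeR's test. Ly6e, a surface protein, went from 797, 804 and 652 CPM to 484, 465 and 458 CPM in MPP and stood at 432, 415 and 412 CPM in control LT-HSC and 470, 580 and 341 CPM in mutant LT-HSC (difference 0.82, adjusted p = 0.132). Irf7, a master factor of the interferon response, showed how far mutant LT-HSC lay apart, at 183 CPM in mutant 2, 49.8 CPM in mutant 1 and less in mutant 3 (difference 2.65, adjusted p = 0.259). Summed over the list, mutant LT-HSC held 3426, 5319 and 2145 CPM beside 3972, 2813 and 2833 CPM in control LT-HSC, and MPP mutants 2323, 1930 and 1855 CPM beside 3515, 4313 and 2914 CPM in control MPP. Without LT-HSC mutant 3, 29 of the 57 were called (885 of all 13513 genes tested) with a median difference of 1.34, and the LT-HSC median was 0.44. Without LT-HSC mutant 2, none was called, the median difference was 0.69 and the LT-HSC median -0.26. The motif GAAANNGAA was present in 22 of the 39 list members with a promoter in the table (56.4%).

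Genes of antigen presentation also had a positive difference, in 16 of 17, with a median of 0.82 and medians of 0.57 in LT-HSC and -0.51 in MPP. None was called for the difference by edgeR's test. In 10 the unadjusted p was under 0.05 (12.4% of all genes), and DESeq2 called 3 (339 of all 13249 genes). H2-Q7, a class I histocompatibility gene with near copies that share reads, rose in LT-HSC from 3.70, 2.58 and 2.71 CPM to 25.4, 21.3 and 8.48 CPM (adjusted p = 0.0061) and stayed under 1 CPM in MPP. Its difference of 2.18 did not pass (adjusted p = 0.259). Cd74, the invariant chain of class II molecules, fell in MPP from 59.1, 37.8 and 71.3 CPM to 6.44, 8.98 and 6.61 CPM (adjusted p = 0.000935) and stood at 5.74, 16.5 and 21.6 CPM in control LT-HSC and 11.9, 7.58 and 9.59 CPM in mutant LT-HSC. Without LT-HSC mutant 3, 7 of the 17 were called (885 of all 13513 genes tested).

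**Figure D5:**
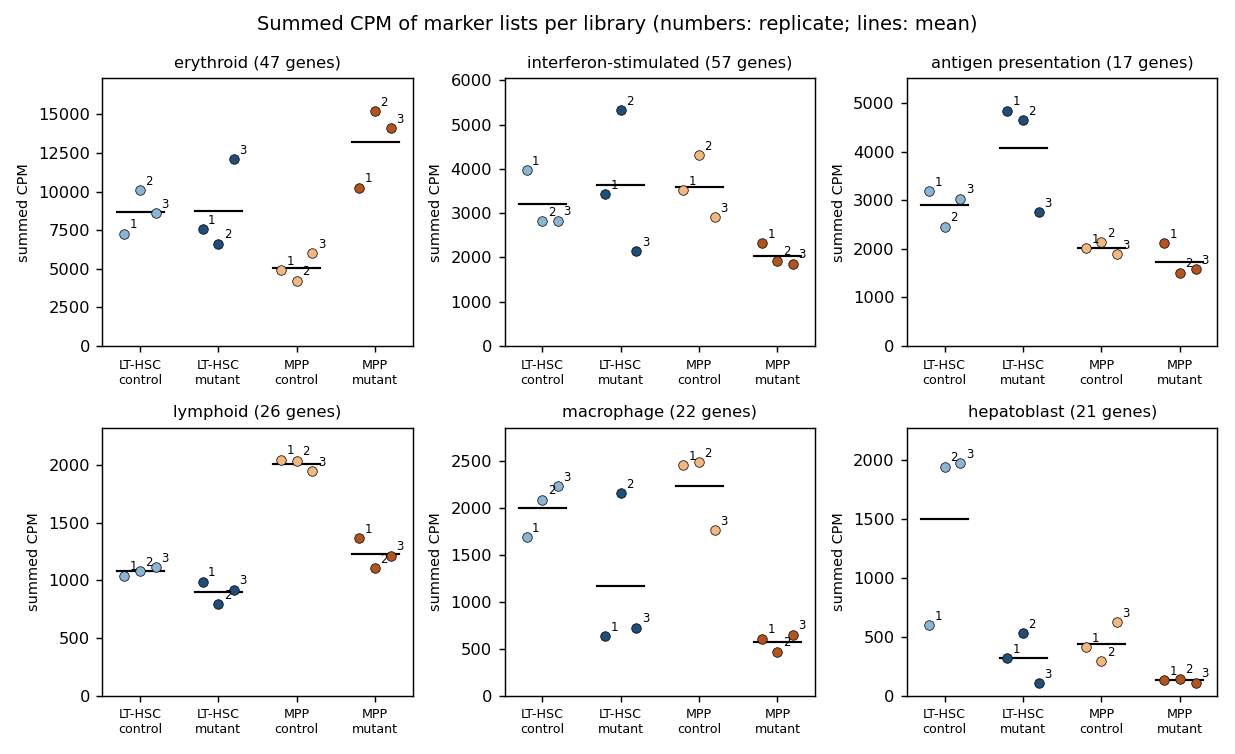
Summed CPM of 6 marker lists in each library (all listed genes), with the group mean as a line and the replicate number beside each point. LT-HSC mutant 3 lies above mutants 1 and 2 in the erythroid panel and below them in the interferon-stimulated panel, and LT-HSC mutant 2 lies with the controls in the macrophage panel.

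Lymphoid genes fell in MPP, in 17 of 21 tested (10.2% of all genes tested fell) with a median of -1.15, and Flt3 was the only one called in LT-HSC, where the median was -0.44. No lymphoid gene was called for the difference by edgeR's test, and the median difference was 0.53. In 7 the unadjusted p was under 0.05 (12.4% of all genes), and DESeq2 called 2 (339 of all 13249 genes). Notch1, a receptor of lymphoid fate, fell in MPP from 221, 245 and 210 CPM to 128, 82.3 and 94.2 CPM and stood at 72.5, 70.5 and 80.4 CPM in control LT-HSC and 81.3, 46.2 and 68.8 CPM in mutant LT-HSC (difference 0.96, adjusted p = 0.163). Ccr9, a chemokine receptor of lymphoid cells, fell in MPP from 90.7, 62.3 and 71.3 CPM to 3.22, 1.91 and 2.12 CPM, and was at 3.17 CPM or less in every LT-HSC library (difference 2.61, adjusted p = 0.443). Of 14 genes of the fetal HSC program, 13 had a positive difference (6426 of all 13249 genes did), with a median of 0.42. Without LT-HSC mutant 2, 10 of the 14 were positive. Hmga2 was the one called by edgeR's test (0.226% of all genes were called with a positive difference), and DESeq2 called 4 (339 of all 13249 genes). Genes known from haematopoietic stem cells had a median difference of 0.08, with 0 of 33 called by edgeR's test, 1 by DESeq2 and 4 at an unadjusted p under 0.05, a share close to the 12.4% of all genes.

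Germline genes rose in both cell types. Of 20 tested, 11 rose in LT-HSC (1.0% of all genes tested rose) and 15 in MPP (10.9% of all genes tested rose), with medians of 3.08 and 3.42. None was called for the difference by edgeR's test or by DESeq2, 3 had an unadjusted p under 0.05 (12.4% of all genes did), and the median difference was -0.48. Among 6 gluconeogenesis genes tested, none was called for the difference by edgeR's test, and DESeq2 called 2 (339 of all 13249 genes). By edgeR's test 2 had an unadjusted p under 0.05 (12.4% of all genes did). One of them, Fbp1, an enzyme of that pathway, rose in LT-HSC from 0.462, 0.589 and 2.04 CPM to 6.59, 4.03 and 4.35 CPM and in MPP from 2.93, 2.24 and 2.48 CPM to 72.9, 60.6 and 62.8 CPM (difference -2.38, adjusted p = 0.0906). All 78 cytosolic ribosomal protein genes tested had a negative difference with a small median of -0.15, against 75 of 78 with DESeq2's size factors (-0.11) and 68 of 78 with upper-quartile scaling (-0.07). None was called by edgeR's test or by DESeq2, and 6 of the 78 had an unadjusted p under 0.05, a share below the 12.4% of all genes.

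Macrophage and hepatoblast markers, from cells of the same organ, also varied by group. All 20 macrophage genes tested, of 22 listed, had a positive difference (6426 of all 13249 genes did). Their median difference was 1.03, with median effects of -1.08 in LT-HSC and -2.18 in MPP. Their sums were 1690, 2086 and 2231 CPM in control LT-HSC, 633.5, 2154 and 724.7 CPM in mutant LT-HSC, 2456, 2489 and 1762 CPM in control MPP and 606.1, 470.3 and 649.4 CPM in mutant MPP. The sum of LT-HSC mutant 2 lay within the range of the control LT-HSC, and without that library the median difference turned to -0.77. With the macrophage sum as a covariate, 14 genes were called, 11 of them among the 50, and the median difference was -1.17 for erythroid and 0.50 for interferon-stimulated genes. In that fit the median effect of interferon-stimulated genes was 0.53 in LT-HSC and 0.04 in MPP. That of erythroid genes was -0.29 in LT-HSC and 0.85 in MPP. Lyz2 is itself a member of the macrophage list and so of this sum. In control MPP it was a large part of the sum (991 of 2456, 1250 of 2489 and 740 of 1762 CPM). Its shared order with the sum over the MPP libraries within each genotype is thus partly built in. In control LT-HSC the orders differed (403, 482 and 380 CPM beside sums of 1690, 2086 and 2231 CPM). In mutant LT-HSC Lyz2 stood at 446 CPM in mutant 2 and at 517 and 444 CPM in mutants 1 and 3. Hepatoblast genes summed to 596.6, 1945 and 1972 CPM in control LT-HSC, 104.6 to 529 CPM in mutant LT-HSC, 291.8 to 623 CPM in control MPP and 110.1 to 144.5 CPM in mutant MPP. Their median difference was -0.46, 0.08 without LT-HSC mutant 3, -1.37 without LT-HSC mutant 2 and -1.24 with the macrophage sum as a covariate, with none of 20 called by edgeR's test or by DESeq2 and none at an unadjusted p under 0.05. With the hepatoblast sum as a covariate 157 genes were called, among them all 50. In MPP both sums separated controls from mutants without overlap, as the hepatoblast sum did in LT-HSC. These fits therefore cannot cleanly separate the sums from the genotype, and the part of these cells in the differences was not tested.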

How the data were processed

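RNA of sorted LT-HSC and MPP was sequenced in 12 libraries. Per the file headers, the values deposited are expected counts from RSEM, 1 per gene, and the submitters' processing notes name STAR, RSEM and the mm10 genome. For the tools, no version is given in the sources used. Between 7.13% and 7.76% of the values were fractional, since RSEM shares a read among the genes it matches. The library kit keeps no strand, so overlapping and antisense genes cannot be told apart.

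Expected counts were rounded and fitted with edgeR 4.0.16 (R 4.3.3) over all 12 libraries with 1 mean per group, TMM scaling and the filterByExpr filter (minimum count 10, minimum total 15). The quasi-likelihood test was applied to the difference of effects, to each genotype effect and to each cell type gap, with Benjamini-Hochberg adjustment over 13249 genes and a threshold of 0.05. CPM values use the TMM-scaled library size, and the 95% intervals are those of the fit. A group was taken as at the floor with 3 counts or fewer over its libraries, and these limits cover counting error only. The code was tested on simulated counts.

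Genes were named by rule: up to 12 per direction with the smallest p among called genes with a log2 difference of at least 1 whose mean reached 10 CPM in a group, 8 per direction for the LT-HSC effect, and up to 4 called members per list. List members that did not pass, and the promoters shown, were picked after their values were seen. Some genes that the rule took are not reported here. The rule, the gene lists and the alternatives were chosen with earlier results of these data known. Alternatives used DESeq2 1.42.0, limma 3.58.1, other scalings, filters (minimum count 30), covariates and each library left out. Titles and file names number the replicates differently, and no label says what a number marks. The 4 LT-HSC and MPP pairs that share a genotype and a file-name number correlated in their deviations at 0.107 to 0.202, against -0.263 to 0.0683 for 14 other pairs of a genotype, so file-name numbers may pair samples. Coordinates and promoters came from RefSeq's tables for GRCm38 (23949 genes matched).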

Additional observations from a re-analysis of the deposited data

Results flagged for a closer look

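The genotype effect differed between LT-HSC and MPP in 50 genes by the interaction test itself (edgeR, adjusted p under 0.05). Genes that the naming rule took are given here as log2 differences, LT-HSC effect minus MPP effect. Positive differences were 2.07 in Lyz2, 1.78 in Irf8, 2.87 in Lpar1, 2.31 in Ppfia4, 1.48 in Coro2a and 1.13 in Hmga2. They were 2.81 in Slfn2, 1.85 in Padi2, 3.15 in Postn, 1.74 in Id2, 1.51 in Tmem229b and 1.79 in Irf5. Negative differences were -1.90 in Ahsa2, -1.56 in Itsn1, -1.10 in Tfr2, -2.15 in Trim10 and -1.16 in Gem. They were -1.47 in Slc22a4, -1.80 in Bicd1, -1.48 in Pglyrp1 and -1.08 in Nxt2. Among members of the gene lists, Lyve1 had -7.02, Fcgr2b 3.15 and Ctsh 2.22. Groups of 3 libraries are too small for a check of single outlying values.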

How the results depend on the processing

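Of 24 alternatives, all kept the sign of the 50 differences. The 50 were chosen in these same libraries, so their kept sign is no further test of them. A reversal was counted only where the main fit or the alternative called the gene, so other sign changes were not counted. On that count none of the 42 genes taken by rule reversed. The number of genes called for the difference was 339 with DESeq2, 87 without a filter on low counts, 470 with voom quality weights (40.9% positive), 137 with the file-name number as a random effect (40.9% positive), 11 with sex, 14 with the macrophage sum and 157 with the hepatoblast sum as a covariate (36.9% positive). With only vav-cre controls, 1 of them in MPP, it was 0 by edgeR (829 at an unadjusted p under 0.05). The LT-HSC effect gave 554 genes with DESeq2, 158 with voom weights, 389 with the random effect, 66 with vav-cre controls and 33 with the hepatoblast sum, against 250. The MPP effect gave 6419 with voom weights, 125 with vav-cre controls, 646 with the hepatoblast and 420 with the macrophage sum, against 2792. The cell type gap in controls gave 6404 with voom weights and 327 with vav-cre controls, against 4152. Leaving out 1 library gave 1 to 885 genes for the difference, 126 to 494 for LT-HSC, 1156 to 3504 for MPP, 2885 to 5063 for controls and 3005 to 5933 for mutants. The causes were not tested.

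A replicate block on the title number gave 53 genes over all libraries (39 of the 50) and 24 within each cell type (17 of the 50), with 2698 for the gap in controls. Same-numbered control and mutant libraries correlated at 0.108 to 0.175 in LT-HSC and at -0.212 to -0.0247 in MPP. These values give no sign that title numbers pair the MPP samples, but are too few to exclude it. Genes with 3 counts or fewer in a group have no usable fold change at this depth.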
